A study of Mus musculus with 3 samples.

Results

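The 10 genes described here encode enzymes that define the metabolic work of the mature liver: Cps1, Otc, Ass1, Asl and Arg1 of the urea cycle, Pck1 and G6pc of glucose production, and Tat, Glul and Gls2 of amino acid and glutamine metabolism. They were chosen by symbol from 21851 protein-coding genes of the GENCODE M21 basic annotation of the mouse build mm10, and all 10 were found. For each gene, peaks and footprints were taken from the gene body and 50000 bp on either side. The values come from DNase-seq of the liver of mouse embryos at 13.5 days, an assay that reads where DNase I can reach and cut the DNA. The mice were wild type, of the strain given as C57BL/6N,129, and every library came from animals with 1 copy of the A20 YAC, a yeast artificial chromosome whose DNA was not analysed here. There were 3 biological replicates in 1 group, without a treated or control group. The labels name 1 donor and a separate biosample for each library, and do not say whether embryos were pooled, so the spread over libraries may be technical.

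The urea cycle turns ammonia from amino acid breakdown into urea, and runs in hepatocytes around the portal vein of the adult liver. Gluconeogenesis builds glucose from amino acids and lactate, and several of its genes are switched on in rodents only around birth, when the supply of glucose from the mother ends. Before birth the liver is the main site of blood formation, so most of its cells at this stage are red cell precursors and the hepatoblasts, the cells that become hepatocytes, are a minority.

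The libraries differed in how much was called in them. Replicates 1, 2 and 3 held 34369, 122281 and 60862 peaks, with mean widths of 212, 228 and 191 bp, and 89836, 342756 and 156638 footprints. A footprint is a short stretch that the authors called as protected from cutting inside accessible DNA. The signal of a peak is scaled per library, so levels are compared within a library or as percentiles, and values below 2 were whole multiples of steps of 0.0112, 0.00347 and 0.00692 in replicates 1, 2 and 3. Promoter peaks were found at 9, 10 and 10 of 10 red cell precursor markers in the 3 replicates. They were found at 3, 9 and 8 of 10 hepatoblast markers, and Alb, which encodes serum albumin, had none in any library. The counts were 1, 3 and 2 of 5 endothelial markers, 2, 4 and 2 of 5 mesenchymal markers, 1, 2 and 1 of 5 intestinal markers, 3, 5 and 3 of 5 neural markers and 0, 0 and 0 of 5 kidney markers. Among all protein-coding genes the shares were 54%, 67.3% and 56.4%. Red cell precursor and neural markers were above these shares in every library, and endothelial, intestinal and kidney markers below. Hepatoblast and mesenchymal markers were above in some libraries and below in others. In a whole tissue, fewer cells of a type and less open chromatin per cell cannot be told apart. The part of cell composition and of library depth in the values of the 10 genes was not tested.

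The promoter window ran 1000 bp to either side of each transcription start site (TSS) from which a protein-coding transcript of the gene begins. An overlap of 1 bp with a listed peak was enough for a promoter to be counted. Ass1, Asl, Glul and Gls2 had a promoter peak in all 3 libraries, Otc, Arg1 and Pck1 in replicates 2 and 3 but not in replicate 1, and Cps1, G6pc and Tat in none. Peaks in all 3 libraries were thus found at 4 of the 10 genes, against 51.4% of all protein-coding genes, and peaks in no library at 3 of the 10, against 32.1% of all. In replicate 1 the promoter of 4 of the 10 genes had a peak, or 40%, against 54% of all protein-coding genes. In replicate 2 it was 7 of 10, or 70%, against 67.3% of all. In replicate 3 it was again 7 of 10, or 70%, against 56.4% of all. The mean was 6 genes ± 1.73 (SD, n = 3), against a mean of 59.2% of all genes. In the longer peak lists used here, the 10 promoters as a set were thus called about as often as promoters in general. They were below the background in replicate 1 and above it in the others. With the shorter peak lists the mean was 4.33 genes, against 53.2% of all. With replicate 1 left out, 7 of the 10 genes had a peak in both remaining libraries, against 55.9% of all protein-coding genes. The count of shared promoters thus depended on replicate 1. Footprints lay in the promoters of 4, 6 and 7 of the genes in replicates 1, 2 and 3, against 51.8%, 65.9% and 54.2% of all protein-coding genes. Positions listed by the authors at a false discovery rate of at most 0.05 lay in the promoters of 4, 7 and 7 of them, against 55.2%, 68.5% and 57.4% of all.

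To show what the groups of promoters look like, the sequence before the start site is given for 1 gene with a strong peak, 1 with a moderate peak, 1 with a weak peak and 1 with none, from the RefSeq table of build GRCm38.p6, ending before the first annotated exon. Capitals mark bases inside a footprint of at least 1 library. Glul is shown on the plus strand of chr1:153899679-153899925, Ass1 on the plus strand of chr2:31470020-31470206, Pck1 on the plus strand of chr2:173152823-173153047 and G6pc on the plus strand of chr11:101367466-101367560.
Glul: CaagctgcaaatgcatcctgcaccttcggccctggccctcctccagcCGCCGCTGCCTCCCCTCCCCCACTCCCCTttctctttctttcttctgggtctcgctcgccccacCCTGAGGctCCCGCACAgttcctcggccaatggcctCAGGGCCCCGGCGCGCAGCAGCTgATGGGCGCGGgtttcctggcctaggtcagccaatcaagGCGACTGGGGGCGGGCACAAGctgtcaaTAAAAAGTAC
Ass1: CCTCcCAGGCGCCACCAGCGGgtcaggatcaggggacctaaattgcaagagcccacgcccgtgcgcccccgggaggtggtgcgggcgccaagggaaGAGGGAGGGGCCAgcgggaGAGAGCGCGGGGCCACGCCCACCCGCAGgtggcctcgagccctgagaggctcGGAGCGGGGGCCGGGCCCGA
Pck1: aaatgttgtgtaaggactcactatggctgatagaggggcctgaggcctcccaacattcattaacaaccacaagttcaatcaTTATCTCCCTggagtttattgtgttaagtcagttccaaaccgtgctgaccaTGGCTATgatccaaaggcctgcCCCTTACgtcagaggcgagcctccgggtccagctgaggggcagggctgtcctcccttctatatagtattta
G6pc: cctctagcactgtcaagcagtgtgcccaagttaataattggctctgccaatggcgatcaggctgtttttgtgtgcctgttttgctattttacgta
Footprints covered 109 of the 247 bases printed for Glul, and those of all 3 libraries shared 36 bases. For Ass1 they covered 81 of 187 bases, with 16 in all 3 libraries. For Pck1 they covered 24 of 225 bases, none of them in more than 1 library, and for G6pc none of 95. The table holds no entry for Cps1, Asl, Arg1 or Gls2. In the 300 bases of each RefSeq entry, which end 50 bases after the start, 9 motifs and 2 added after the sequences were seen were searched on both strands. GGGCGG, the letters of SP and KLF factors, which bind CpG-rich promoters, were found at Glul, Ass1 and Pck1 and in 35.7% of 32851 promoters. The printed sequence holds these letters at Glul, 48 to 43 bases before the start, but not at Ass1 or Pck1. GTTAATNAT, the letters of HNF1, a liver and kidney factor, were found among the 6 genes with an entry only at G6pc, 66 to 58 bases before the GENCODE start, and in 0.801% of all promoters. AGATAA, the GATA letters, were found at Pck1 and Tat and in 11.2% of all. At Pck1 they lay inside a footprint of 1 library, 144 to 139 bases before the start. ACANNNTGT, the glucocorticoid receptor letters, was found at Glul alone of the 6, 40 to 32 bases before the start and partly in footprints of 2 libraries, and in 6.85% of all promoters. ACGTCA, a part of the CREB letters and one of the added motifs, was found at Pck1 alone of the 6 and in 7.51% of all. The letters of HNF4 (CAAAGTNCA), FOXA (TGTTTAC), C/EBP (TTGCNNAA), CREB (TGACGTCA) and CTCF (CNAGNGGGC) were found in none of the 6 windows.

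In the urea cycle, the promoters of the middle enzymes Ass1 and Asl were called in every library, and that of the entry enzyme Cps1 in none. Cps1 (chromosome 1, 67123026 to 67231259, plus strand) makes carbamoyl phosphate from ammonia and bicarbonate, the first committed step. It had no promoter peak, no promoter footprint and no listed position in its promoter in any library. The listed position nearest to its TSS was 81526, 19896 and 2583 bp away in replicates 1, 2 and 3. Otc (chromosome X, 10252305 to 10321024, plus strand) joins carbamoyl phosphate to ornithine. Its promoter signal was 0, 0.149 and 0.277 in replicates 1, 2 and 3. The peak lay on the start site, was 43 steps high in replicate 2 and 40 in replicate 3, and had footprints only in replicate 3, where there were 3. The lowest false discovery rate listed in its promoter was 0.0302 in replicate 2 and 2.41e-04 in replicate 3, and its signal was the lowest of the 7 called promoters in both libraries.

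Ass1 (chromosome 2, 31470207 to 31520672, plus strand) makes argininosuccinate from citrulline and aspartate, and also serves arginine synthesis outside the liver. The Ass1 promoter had signals of 2.00, 2.48 and 1.61 in replicates 1, 2 and 3. These values stood at percentiles 63.7, 57.6 and 59.1 of all protein-coding genes, where the percentile is the percentage of genes with a lower promoter signal and genes without a peak count as 0. All 3 were above the middle of the genome. Asl (chromosome 5, 130011258 to 130029247, minus strand) splits argininosuccinate into arginine and fumarate. The Asl promoter had signals of 2.34, 5.53 and 5.10 and percentiles of 67.0, 67.6 and 74.8. The Asl window covers 3 annotated start sites and holds 2 separate regions. The outer one, chr5:130029201-130029400, had signals of 2.34, 4.25 and 1.98 and also lies at the start of Crcp, the neighbour transcribed the other way. The inner one, chr5:130023801-130024480, had signals of 1.89, 5.53 and 5.10 and lies 5106 bp inside the gene, at a start of its own. The inner start was thus the stronger in replicates 2 and 3 and the weaker in replicate 1, and only the outer one is shared with a neighbour.

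Arg1 (chromosome 10, 24915221 to 24927484, minus strand), arginase, releases urea from arginine. The window of Arg1 had signals of 0, 0.313 and 0.291 in replicates 1, 2 and 3. The peak behind these values lay 887 bp before its TSS, where the start of the gene Gm36172 also falls within 1000 bp, and the listed positions nearest to the Arg1 TSS were 808 and 864 bp away in replicates 2 and 3. The start site of Arg1 itself was therefore not called in any library. Otc and Arg1 stood at mean percentiles of 25.7 ± 23.0 and 27.1 ± 23.8 (SD, n = 3), and the SD is nearly as large as the mean because replicate 1 had no peak.

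Of the genes of glucose production, Pck1 had a weak promoter peak and G6pc none. Pck1 (chromosome 2, 173153048 to 173159273, plus strand) encodes the cytosolic phosphoenolpyruvate carboxykinase, the rate-setting enzyme of gluconeogenesis. Its promoter signal was 0, 0.455 and 0.748 in replicates 1, 2 and 3, at percentiles 0, 41.3 and 52.6. Replicate 3 was thus just above the middle of all genes, while replicate 1 had no peak. The region, chr2:173152686-173152980, holds 1 footprint in replicate 2 and 3 in replicate 3, and the printed Pck1 sequence covers part of this region. G6pc (chromosome 11, 101367561 to 101377903, plus strand) encodes the catalytic subunit of glucose-6-phosphatase, which releases free glucose. It had no promoter peak in any library. The nearest listed positions were 28882, 2649 and 4917 bp from its TSS in replicates 1, 2 and 3.

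The enzymes of amino acid and glutamine metabolism divided sharply. Tat (chromosome 8, 109990437 to 109999803, plus strand), tyrosine aminotransferase, starts the breakdown of tyrosine and is a classical gene of perinatal induction by glucocorticoids. It had no promoter peak, and the nearest listed position was 12669, 12590 and 12651 bp away in replicates 1, 2 and 3. The same stretch was thus the nearest in every library. Glul (chromosome 1, 153899944 to 153909723, plus strand), glutamine synthetase, captures ammonia in glutamine and in the adult liver marks hepatocytes next to the central vein. The Glul promoter had signals of 3.46, 10.9 and 7.61, the highest of the 10 genes in every library, at percentiles 76.9, 81.7 and 82.1. Its listed positions covered 1306, 1570 and 1140 bp, and its promoter held 9, 15 and 9 footprints. The window also holds the starts of Teddm2 and Mir8114, so its signal cannot be given to Glul alone. Gls2 (chromosome 10, 128194457 to 128210004, plus strand), the liver-type glutaminase, releases ammonia from glutamine. The Gls2 promoter had signals of 2.60, 4.88 and 3.59, at percentiles 69.3, 65.6 and 69.0, with 3, 5 and 5 footprints and no other start in the window.

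**Figure D1:**
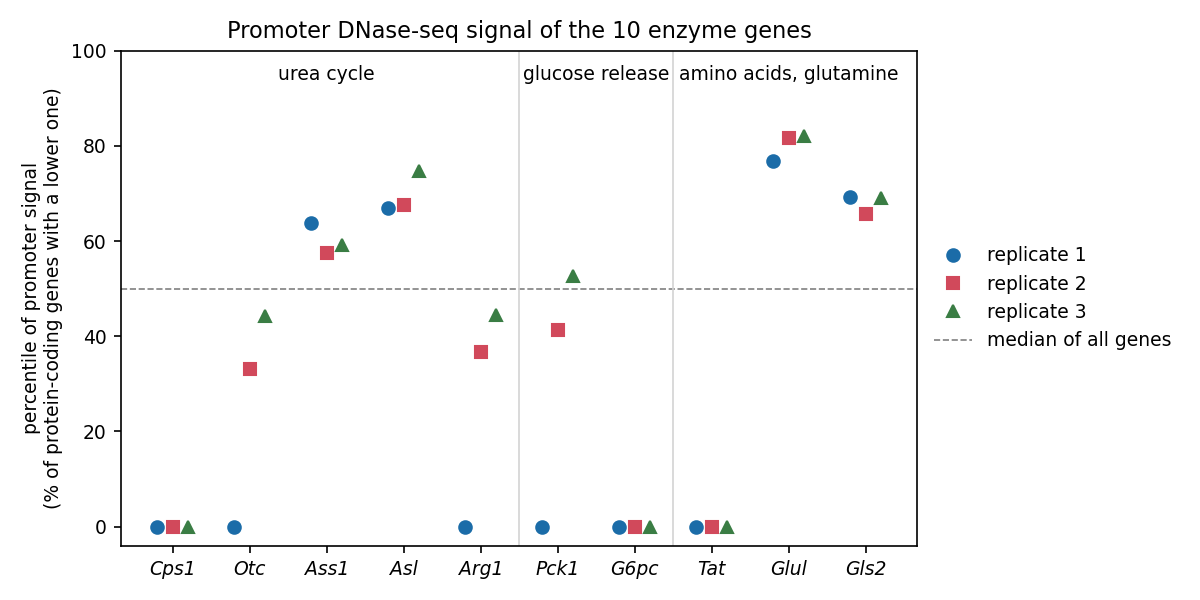
Percentile of promoter signal among all protein-coding genes (y axis, percent) for each of the 10 genes (x axis, by pathway) in replicates 1, 2 and 3 (points). Ass1, Asl, Glul and Gls2 lie above the dashed line at 50 in every library, Cps1, G6pc and Tat are at 0 in all 3, and Otc, Arg1 and Pck1 are at 0 in replicate 1 alone.

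In order of mean percentile, Glul stood at 80.2 ± 2.88, Asl at 69.8 ± 4.32, Gls2 at 68.0 ± 2.07 and Ass1 at 60.2 ± 3.20 (SD, n = 3 each). Every value of Glul was above every value of Asl, and every value of Gls2 was above every value of Ass1. Asl and Gls2 overlapped. Pck1 followed at 31.3 ± 27.7, Arg1 at 27.1 ± 23.8 and Otc at 25.7 ± 23.0 (SD, n = 3 each), with wide SDs that come from the shared 0 in replicate 1. In both libraries with peaks the order was the same, with Pck1 at 41.3 and 52.6, Arg1 at 36.8 and 44.4 and Otc at 33.0 and 44.2 in replicates 2 and 3. Arg1 and Otc were close in replicate 3, and their ranges overlapped. The median over the 10 genes was 0, 39.1 and 48.5 in replicates 1, 2 and 3, against 49.9, 49.96 and 49.9 over all protein-coding genes. The genes whose percentiles lay nearest to those of each shared promoter over the 3 libraries were Spire2, Rab27a and Sptan1 for Ass1, Slc14a1, Rbm3 and Atxn7l2 for Asl, Pdcl and Taf3 for Glul, and BC029722, Mitf and Uckl1 for Gls2. The Euclidean distances were 1.27 to 1.35 for Ass1, 0.833 to 0.879 for Asl, 0.543 and 0.626 for Glul, and 0.442 to 0.745 for Gls2. Teddm2 stood at distance 0 from Glul because both windows hold the same peak.

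The promoters called in every library were also those richest in CpG sites. CpG sites and repeats were counted within 1000 bp of the most upstream start site of each gene alone. This window held 142 CpG sites at Gls2, 118 at Glul, 76 at Ass1 and 64 at Asl. It held 37 each at Arg1 and Pck1, 25 at Tat, 19 at G6pc, 11 at Cps1 and 6 at Otc. For Asl it leaves out the inner region, which gave the signals of 5.53 and 5.10 in replicates 2 and 3. The median over all protein-coding genes was 63, so the 4 genes with a peak in all 3 libraries lay above it and the other 6 below. Among all genes in 4 bins of this number, 3.88% of those with 0 to 22 sites had a peak in all 3 libraries, 37.9% of those with 23 to 62, 80.4% of those with 63 to 99 and 82.1% of those with 100 to 323. In the same bins 86.6%, 35.6%, 5.26% and 2.52% had none. Otc, with a peak in 2 libraries, falls in the lowest bin. The part of CpG content in the promoter calls of the 10 genes was not tested. Annotated repeats covered 46.0% of the same window at Asl and 25.4% at G6pc, against a median of 13.7% over all genes.

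**Figure D2:**
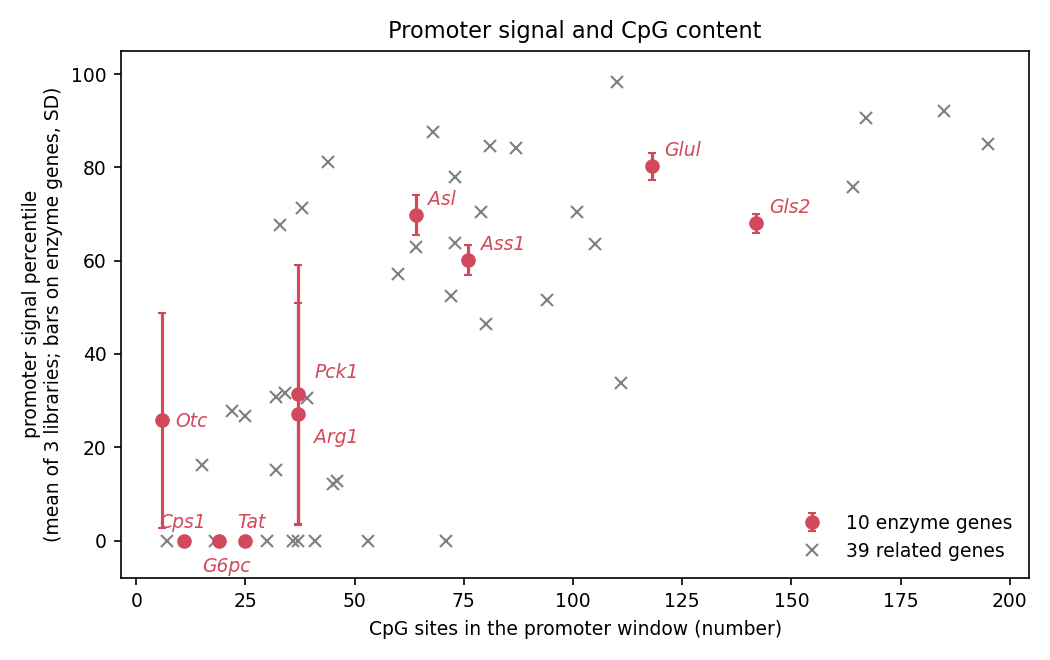
Mean promoter signal percentile over the 3 libraries (y axis, percent) against CpG sites (x axis) for the 10 enzyme genes (red, bars SD, n = 3) and 39 related genes (grey crosses). CpG sites were counted within 1000 bp of the most upstream start site, while the signal covers every start site of the gene. The 4 genes with 64 or more CpG sites sit between 60.2 and 80.2, and the 6 with 37 or fewer at or below 31.3.

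Related genes of the same pathways were looked at in lists of 7 urea cycle and ammonia genes, 11 gluconeogenesis genes and 21 amino acid breakdown genes. Of the urea cycle and ammonia list, 6, 7 and 6 genes had a promoter peak in replicates 1, 2 and 3, or 85.7%, 100% and 85.7%, with 6 of 7 in all 3 libraries. For this list and the next, the shares of all protein-coding genes were 54%, 67.3% and 56.4%, and 51.4% in all 3 libraries. Among the highest were Glud1, glutamate dehydrogenase, at a mean percentile of 75.7 ± 2.19, and Slc25a15, the mitochondrial ornithine carrier, at 63.6 ± 2.87 (SD, n = 3 each). Of the gluconeogenesis list 8, 10 and 9 genes had a peak, or 72.7%, 90.9% and 81.8%, with 8 of 11 in all 3 libraries. Pcx, pyruvate carboxylase, which opens gluconeogenesis from lactate, had signals of 6.998, 27.4 and 26.0. It was higher than any of the 10 enzyme genes in each library. Creb1, a factor of the fasting response, stood at 92.1 ± 3.72 and Slc37a4, the glucose-6-phosphate transporter that works with G6pc, at 87.5 ± 3.28 (SD, n = 3 each). Fbp2, the muscle fructose bisphosphatase, had no peak. G6pc3, the form of glucose-6-phosphatase found in most tissues, had a peak in all 3 libraries with signals of 1.31, 2.23 and 1.38, where G6pc had none. Pck2, the mitochondrial form of phosphoenolpyruvate carboxykinase, likewise had signals of 3.17, 11.3 and 9.52, against 0, 0.455 and 0.748 for Pck1. G6pc3 and Pck2 were named after their values were seen.

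Of the 21 amino acid breakdown genes 7, 12 and 14 had a peak in replicates 1, 2 and 3, or 33.3%, 57.1% and 66.7%, against 54%, 67.3% and 56.4% of all protein-coding genes. The list was thus below the background in replicates 1 and 2 and above it in replicate 3. Of the 21 genes, 7 were called in all 3 libraries and 7 in none, against 51.4% and 32.1% of all protein-coding genes. The highest were Oat, ornithine aminotransferase, at 84.6 ± 0.912, Got1, the cytosolic aspartate aminotransferase, at 84.1 ± 5.37, and Got2, its mitochondrial counterpart, at 77.9 ± 7.97 (SD, n = 3 each). Those without a peak included Tdo2, Hal, Sds, Agxt, Gnmt and Dpys. Tdo2, Hal and Sds act first on tryptophan, histidine and serine, as Tat does on tyrosine, and Agxt, Gnmt and Dpys act on glyoxylate, glycine and pyrimidines. Within 1000 bp of the most upstream start site, the named genes without a peak held from 7 CpG sites at Tdo2 to 71 at Gnmt. Oat, Got1 and Got2 held 81, 87 and 73.

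Beyond the promoters, the 10 loci held 40, 95 and 72 peaks in the 3 replicates in turn, on average 69 ± 27.6 (SD, n = 3), and 98, 291 and 168 footprints, on average 185.7 ± 97.7 (SD, n = 3). Merged where they overlapped by at least 1 bp, the peaks formed 114 regions, of which 28 were found in all 3 libraries, 33 in 2 and 53 in 1. Pooled over the 10 windows there were 2.14 shared regions per 100 kb. Single protein-coding genes had a median of 1.98, with 10th and 90th percentiles of 0 and 6.83. A pooled density and a median of single loci are unlike measures, so they compare only roughly. The 10 loci ranged from 0 at Cps1 to 6.06 at Gls2. With replicate 1 left out the shared regions numbered 56. Of the 33 regions found in 2 libraries, 27 lacked replicate 1 alone, or 81.8%, against 82.9% of such regions in the genome. Of the 53 found in 1 library, 5, 35 and 13 came from replicates 1, 2 and 3, against 2308, 67101 and 10958 of 80367 such regions in the genome.

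The shared regions lay at start sites about as often as in the genome. Of the 28, 8 were at a promoter of one of the 10 genes, 8 at a promoter of another gene, 3 inside one of the 10 genes, 3 inside another gene and 6 between genes. Thus 16 of the 28 lay at a TSS and 12 did not, against 57.6% at a TSS among the 25972 regions of the genome found in all 3 libraries. For 5 of the 10 genes the shared region with the highest mean signal percentile over the libraries lay at the promoter of a neighbour. It was the promoter of Rpgr at Otc, of Med23 at Arg1, of Rundc1, Ptges3l and Gm27029 at G6pc, of Marveld3 at Tat and of Timeless and Gm26847 at Gls2. The order was not the same in each library: at Tat a region between genes had signals of 0.739, 0.507 and 0.498, against 0.683, 1.03 and 0.457 at the Marveld3 promoter. The Med23 promoter, with signals of 5.78, 15.9 and 11.0, was the only shared region in the Arg1 window, and the Rpgr promoter, with 1.91, 5.47 and 3.03, the only one in the Otc window.

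**Figure D3:**
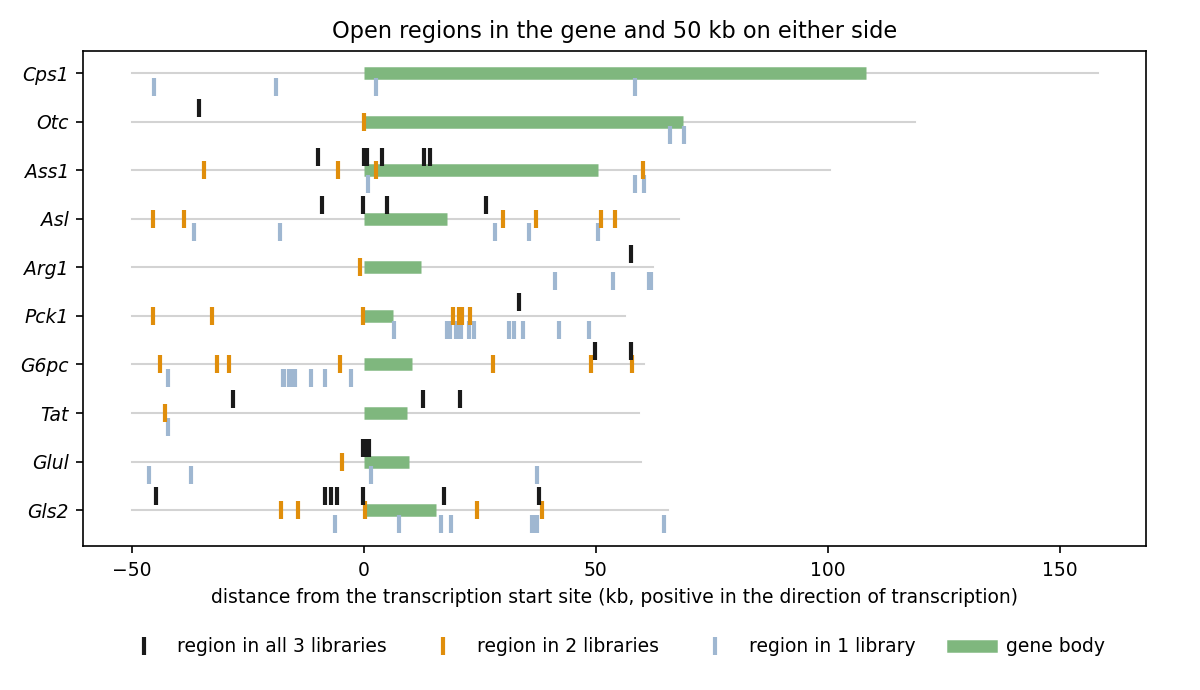
Regions in the gene and 50 kb on either side (ticks at the region's midpoint) by distance from the TSS in kb (x axis, positive in the direction of transcription) for the 10 genes (y axis), coloured by the number of libraries that held them, with gene bodies in green. Gls2 and Ass1 have 7 and 6 regions found in all 3 libraries, Cps1 has none over its 208 kb window, and the 11 regions downstream of Pck1 stand close together.

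Loci differed widely in how many peaks they held. Cps1 held 0, 1 and 3 peaks in replicates 1, 2 and 3, all 4 of them in a single library each, and no shared region in a window of 208 kb. Otc held 2, 3 and 2, Arg1 held 1, 4 and 4, and each had 1 shared region, that of the neighbour. Gls2 held 8, 17 and 14, with 7 shared regions, 6.06 per 100 kb, at percentile 86.8 of all genes. Ass1 held 6, 13 and 10, with 6 shared regions, 3.99 per 100 kb, at percentile 73.3. These 2 loci were also the richest in shared regions away from start sites, with 4 each. Asl held 5, 13 and 14 peaks and 4 shared regions, Glul 3, 5 and 8 and 3 shared regions, Tat 3, 5 and 4 and 3 shared regions, and G6pc 3, 17 and 9 and 2 shared regions. All 3 shared regions of Glul lay at its promoter, at midpoints 73 bp before and 287 and 1087 bp after the start, and their signal was lower the farther out they lay in each library.

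**Figure D4:**
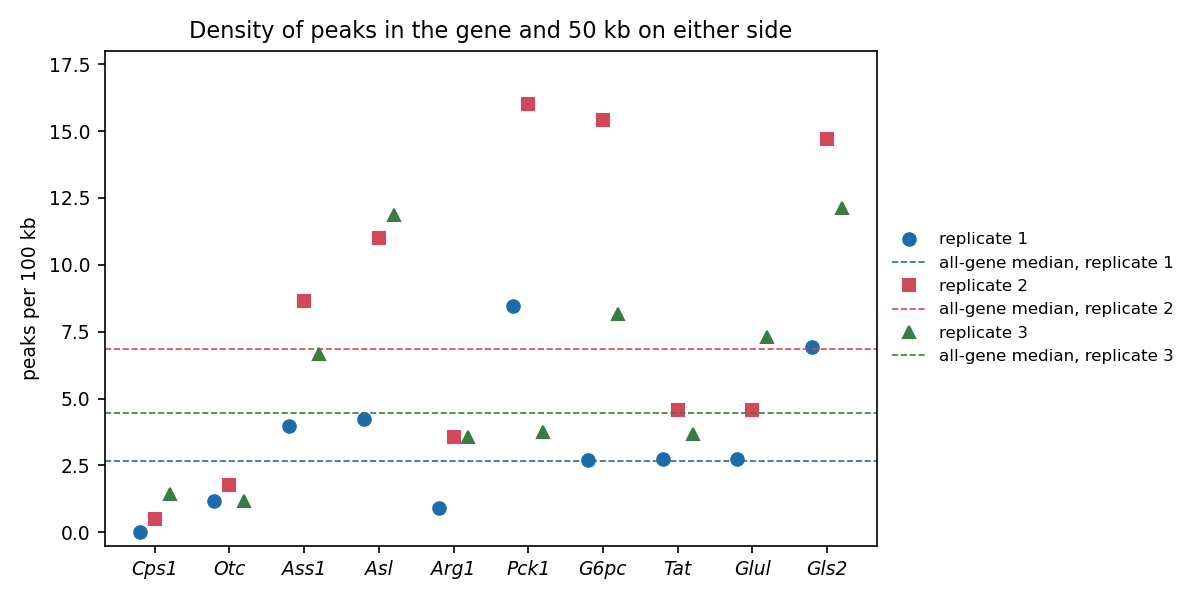
Peaks per 100 kb of window (y axis) at the 10 loci (x axis) in replicates 1, 2 and 3 (points), with the median over all protein-coding genes in each library (dashed lines). Cps1, Otc and Arg1 lie below the median of their library throughout, Ass1, Asl and Gls2 above it, and Pck1 is above it in replicates 1 and 2 and below it in replicate 3.

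The regions away from start sites with the highest mean signal percentile at each locus are printed below in build GRCm38, on the plus strand, because they are the distal sites that recurred at these enzymes. Capitals again mark bases inside a footprint of at least 1 library. The Ass1 region, chr2:31483021-31483220, lies in an intron 12914 bp after the start. The Asl region, chr5:130038081-130038320, lies in an intron of Crcp 8954 bp before the start of Asl. The Pck1 region, chr2:173186421-173186660, lies between genes 33493 bp after the start, the Tat region, chr8:110011001-110011158, between genes 20643 bp after it, and the Gls2 region, chr10:128186081-128186280, between genes 8276 bp before it.
Ass1 intron: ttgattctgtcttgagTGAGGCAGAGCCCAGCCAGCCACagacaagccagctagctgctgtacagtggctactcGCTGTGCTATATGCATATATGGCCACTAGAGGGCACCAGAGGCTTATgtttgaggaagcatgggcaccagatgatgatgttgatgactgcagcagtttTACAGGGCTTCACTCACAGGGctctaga
Asl upstream: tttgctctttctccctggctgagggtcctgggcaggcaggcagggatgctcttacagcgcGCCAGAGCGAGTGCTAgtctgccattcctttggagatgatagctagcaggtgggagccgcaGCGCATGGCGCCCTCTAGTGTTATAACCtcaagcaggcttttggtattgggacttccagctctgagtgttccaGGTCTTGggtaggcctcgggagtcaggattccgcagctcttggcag
Pck1 downstream: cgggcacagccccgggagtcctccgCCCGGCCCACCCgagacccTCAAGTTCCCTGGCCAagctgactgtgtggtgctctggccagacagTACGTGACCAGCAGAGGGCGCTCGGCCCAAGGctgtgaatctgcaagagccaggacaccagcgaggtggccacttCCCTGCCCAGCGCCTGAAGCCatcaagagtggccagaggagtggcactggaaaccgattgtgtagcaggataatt
Tat downstream: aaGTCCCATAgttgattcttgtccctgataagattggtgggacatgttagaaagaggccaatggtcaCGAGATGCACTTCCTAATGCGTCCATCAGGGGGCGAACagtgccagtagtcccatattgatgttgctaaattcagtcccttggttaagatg
Gls2 upstream: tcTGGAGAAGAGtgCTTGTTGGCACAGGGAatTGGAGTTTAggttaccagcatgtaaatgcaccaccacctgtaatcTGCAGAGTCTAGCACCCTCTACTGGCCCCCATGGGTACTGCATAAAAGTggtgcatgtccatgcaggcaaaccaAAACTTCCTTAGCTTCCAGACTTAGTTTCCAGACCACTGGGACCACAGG
The Ass1 region had signals of 1.03, 1.63 and 1.18 in replicates 1, 2 and 3, the Asl region 0.750, 1.08 and 0.623, and the Pck1 region 1.35, 1.5 and 0.713. The Tat region had 0.739, 0.507 and 0.498. The Gls2 region had 2.87, 4.58 and 3.11, the strongest of the 5 in every library, and close to the 2.60, 4.88 and 3.59 of the Gls2 promoter itself. Footprints covered 133 of its 200 bases, and those of all 3 libraries shared 63.

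The letters of CTCF, a factor known for holding chromatin loops, recurred in these distal sequences at about the rate of distal regions in general. CNAGNGGGC was found in the 200 bp around the midpoint of 2 of the 12 shared regions away from start sites, those printed for Ass1 and Asl, against 16.8% of 11025 such regions in the genome. In the Ass1 sequence the letters are bases 100 to 108, and all 9 lie in footprints of all 3 libraries. In the Asl sequence they are bases 131 to 139, on the other strand, with 3 in footprints of all 3. The shorter AGNGGGC, added after the sequences were seen and contained in the longer one, was found in 6 of the 12, against 39.3%. At Pck1 it is bases 103 to 109 and at Tat bases 95 to 101, and in both it lies in footprints of all 3 libraries, with 6 and 7 bases shared by all 3. GATA letters were found in 0 of the 12 against 14.0%, and those of HNF4, HNF1 and FOXA in 0 of the 12 against 0.726%, 0.236% and 2.06%. The 12 leave out regions that replicate 1 lacked, and GATA letters did occur among those. Examples in the Asl window are chr5:129974881-129975380 and chr5:129991961-129992180, both found in replicates 2 and 3. GGGCGG was found in 11 of the 16 shared regions at start sites, against 59.9% of 14947, and in 1 of the 12 away from them, against 17.3%.

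G6pc, without a promoter peak, had 4 regions before its start that 2 libraries shared. The nearest lies between genes 5070 bp before the start, and its signal was 0, 0.497 and 1.05 in replicates 1, 2 and 3. It is printed because it was the only one of the 114 regions whose central 200 bp held the HNF1 letters, and it was picked after this was seen. The share of all regions in the genome with these letters is not given here, so the single hit has no background beside it. The plus strand of chr11:101362361-101362620 reads as follows, with footprint bases in capitals.
G6pc upstream: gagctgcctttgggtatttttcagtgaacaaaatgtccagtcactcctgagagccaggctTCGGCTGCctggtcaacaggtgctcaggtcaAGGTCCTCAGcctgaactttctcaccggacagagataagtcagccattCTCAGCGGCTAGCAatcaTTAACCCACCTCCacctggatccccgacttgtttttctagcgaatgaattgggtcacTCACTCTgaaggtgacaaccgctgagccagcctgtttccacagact
The HNF1 letters are bases 154 to 162, ATCATTAAC on this strand, and part of them lies in footprints of replicates 2 and 3. AGATAA is at bases 124 to 129, outside any footprint. The HNF1 letters in the G6pc promoter, GTTAATAAT, lay in no footprint of any library.

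Downstream of Pck1 replicate 3 differed from the others. Between 17833 and 23837 bp after its start, at chr2:173170701-173176926, stood 11 regions, a group chosen after it was seen. Replicate 1 had peaks in 7 of them, replicate 2 in 8 and replicate 3 in none, with 13, 22 and 0 footprints. Only the regions that begin at 173172019, 173173541, 173174101 and 173175781 were found in both replicates 1 and 2, and each of the others in 1 library. The highest signals of the group were 0.571 in replicate 1 and 0.702 in replicate 2, both in the region at chr2:173174101-173174500. Among the peaks of their library these stood at percentiles 13.8 and 69.9, against median signals of 1.16 and 0.386. Why replicate 3 had no peak there was not tested. The order of libraries is unlike that at the Pck1 promoter, which was called in replicates 2 and 3 and not in replicate 1. Pck1 was the only one of the 10 loci where replicate 1 held more peaks than replicate 3, 9 against 4, although replicate 3 held more peaks in all. Farther out, the region 33493 bp after the start was found in every library.

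**Figure D5:**
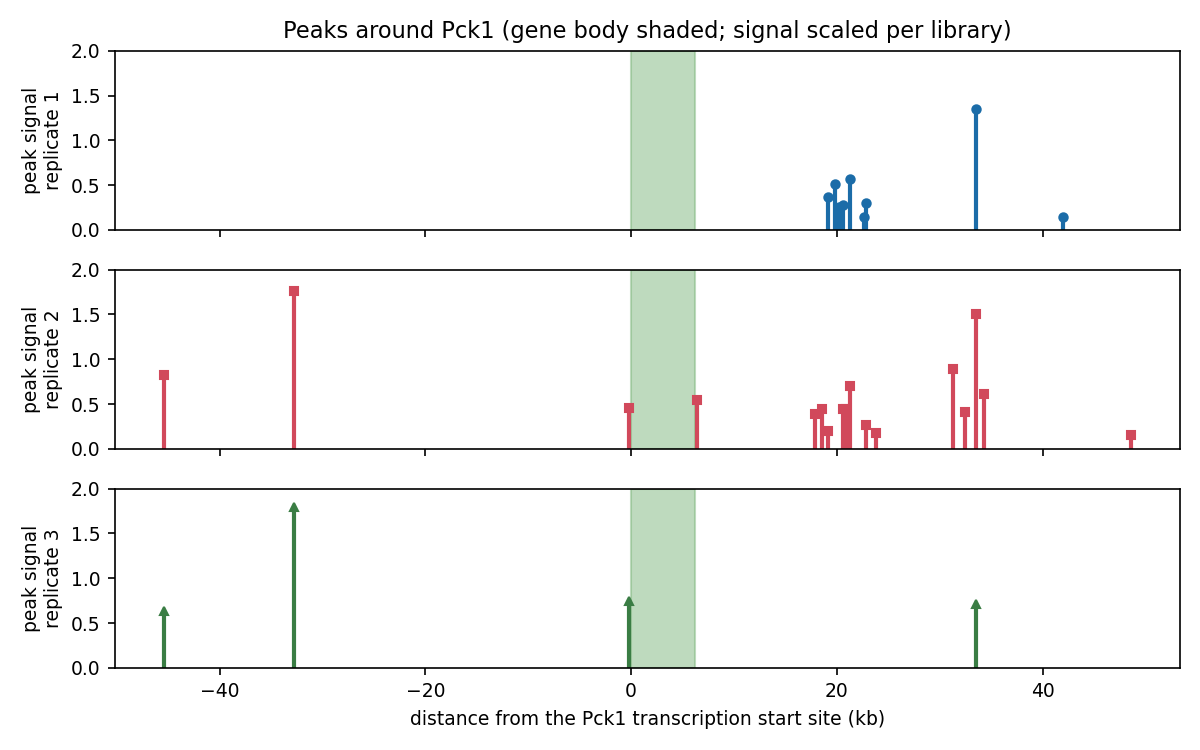
Peak signal (y axis, scaled per library) at each region around Pck1 by distance from its TSS in kb (x axis), in replicates 1, 2 and 3 (panels), with the gene body shaded. The stretch 17833 to 23837 bp after the start holds 7 and 8 regions in replicates 1 and 2 and 0 in replicate 3, while the region at 33493 bp is present in all 3 panels.

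Footprints at the 10 loci followed the peaks. Their median width was 10, 10 and 11 bp in replicates 1, 2 and 3, against 10 bp over all footprints in each library, and 89.8%, 80.1% and 89.9% lay in peaks of the same library, against 89.5%, 77.1% and 86.9% of all footprints. Gls2 had the most, 23, 69 and 46, and Cps1 had 0, 0 and 3. Ass1 had 12, 42 and 24 and Asl 13, 44 and 29. Pck1 had 15, 39 and 8 and G6pc 8, 39 and 24, in windows that differ in size.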

How the data were processed

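Processed files of 3 DNase-seq libraries were used. Per the deposited file listings, the authors made each peak list in build mm10 from the filtered alignments of 1 library. The peak caller is not given in the sources used here. Signal values in the deposited peak lists are scaled per library by the authors, in a way the sources do not state. The deposited false discovery rate (q-value) files list intervals at 0.05 or below, and the deposited footprints carry no score of use, so only their positions were taken. Of the 2 peak lists of each library the longer was used. Totals of reads were not used, and the steps of the signal were not checked against them, so depth is not known here.

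From these files, promoter signal was the highest peak signal in the window, and peaks were merged across libraries where they overlapped by at least 1 bp (Python 3.11.15, NumPy 2.4.6, pandas 2.3.3, bedtools 2.31.1). Regions more than 1000 bp from any TSS were called away from start sites. The overlap and merge steps were tested on simulated data. With 1 group, no test between groups was made. Named were all 10 genes, the 3 highest genes and those without a peak in each related list, the strongest shared regions of each locus, and the genes nearest in percentile; some genes the rule names are not reported here. The members, lists and motifs were chosen with earlier results of these data known. Alternatives were the shorter peak list, equal numbers of the strongest peaks, other promoter and flank sizes, a larger overlap, footprints in peaks only, and leaving out each library.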

Additional observations from a re-analysis of the deposited data

How the results depend on the processing

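The 4 genes with a promoter peak in every library, Ass1, Asl, Glul and Gls2, had one in every library with the shorter peak list, with the 34369 strongest peaks of each library, with 2500 bp promoters and with 1 TSS per gene, the most upstream. With the shorter list and with equal numbers of peaks, 4, 4 and 5 genes had a promoter peak in replicates 1, 2 and 3, so the calls at Otc and Arg1 and that at Pck1 in replicate 2 rested on weak peaks of the larger lists. Leaving out each library gave 4 to 7 genes with a peak in all libraries used, against 51.4% to 55.9% of all genes. The means were 5.5 to 7 genes, against 55.2% to 61.9% of all. Shared regions numbered 28 to 56, or 2.14 to 4.28 per 100 kb, and footprints averaged 133 to 229.5. The highest counts of shared promoters and regions came without replicate 1. Flanks of 10000 bp gave 19 shared regions and 90.7 footprints, and flanks of 100000 bp gave 57 and 417.7, counts that follow window size. Per 100 kb they gave 3.73 and 2.47 shared regions. The shorter list and equal numbers of peaks gave 19 and 20 shared regions, or 1.45 and 1.53 per 100 kb. Densities over all genes were not recomputed for these settings. Of 70 recomputed promoter percentiles, 65 moved by at most 1 SD over the 3 libraries and 5 by more. Otc and Arg1 fell to 0 with the shorter list and with equal numbers, and Asl moved with 1 TSS. The measure is loose, since Cps1, G6pc and Tat stayed at 0 and the SDs of Otc, Arg1 and Pck1 were nearly their means. Pck1 counted as within 1 SD at 17.6 with the shorter list, against 31.3. No paired analysis was possible because there is 1 group. The part of depth in the missing peaks of replicate 1 was not tested, and a promoter without a peak is not shown to be closed.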
